A study of Ambystoma mexicanum with 17 samples.

Results

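Explants at the end of the series, stage 41, were compared with explants at its start, stage 37/38, over every gene of the deposited count table. The comparison was defined by the stage in the labels and takes in 11 of the 17 RNA-seq libraries, 5 at stage 41 and 6 at stage 37/38. The 6 libraries of stage 39 were left out. All libraries came from axolotl (Ambystoma mexicanum), with no genotype or treatment named beside the stage. The tissue was oropharyngeal endoderm, removed from embryos at stage 15 and then held in an L15-based culture medium with antibiotics until whole siblings had reached the wanted stage. The explants were therefore staged by their siblings and grew without the rest of the embryo in both groups. Total RNA was sequenced. Libraries are called replicates in the labels, with no word on separate embryos or pools. A p-value therefore sets the difference between stages against the variation between these particular libraries, and that variation may be technical.

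The oropharyngeal endoderm is the inner cell layer that lines the mouth and pharynx. In salamanders it gives rise to taste buds, clusters of receptor, support and basal cells that detect chemicals in food, and classic explant work in axolotl found that endoderm cut out before innervation can still form them. Taste buds become recognisable around hatching, when precursor cells turn into differentiated taste cells.

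No gene known from that process could be looked up here. The table lists its genes as identifiers of a Trinity assembly, which joins reads into transcripts without a genome, and 0 of its 19649 identifiers matched a name in the reference annotation. No sequence of the assembly was used here. The tissue label could not be set against defining markers for the same reason. Genes are therefore described by identifier, level and pattern. In an identifier, the number after DN and c gives the assembly component and the number after g the gene within it. Genes of 1 component share sequence, and 449 of the 1307 tested genes had such a partner in the table, so the division of reads between partners is uncertain.

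Depth was low and uneven at both stages. It is not stated whether every read and every assembled gene entered the table, so totals and numbers of genes describe the table alone. Total counts were 67834 to 748720 per library at stage 41 and 71698 to 365543 at stage 37/38, and stage 41 replicate 2 alone held 56.2% of the stage 41 counts. At an equal 60000 counts, the 5 stage 41 libraries showed 4139 ± 1088 genes and the 6 stage 37/38 libraries 4187 ± 886 (mean ± SD). The 10 most abundant genes of each library held 43.5% ± 3.02 of the counts at stage 41, against 41.5% ± 7.52 at stage 37/38. In 5 two-sided exact permutation tests of library measures (total counts, genes at equal depth, the share of the 10 leading genes together and of each of the 2 foremost), adjusted p lay between 0.9172 and 0.9286. In bulk RNA, fewer cells of a type and less RNA per cell cannot be told apart, which holds for each gene below.

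Only 4 of the 1307 tested genes separated the stages completely, with every stage 41 library above or every one below every stage 37/38 library. They were TRINITY_DN10377_c0_g2 and TRINITY_DN28141_c0_g2, higher at stage 41, and TRINITY_DN20055_c0_g1 and TRINITY_DN27340_c1_g1, lower at stage 41. This is 0.306% of the tested genes, and 0.153% in each direction. How many genes other groupings of the 11 libraries would separate was not computed, so the 4 are not shown to exceed chance. No gene passed the test across all genes. In edgeR's quasi-likelihood test 0 of 1307 genes, or 0%, had an adjusted p under 0.05, and the smallest Benjamini-Hochberg adjusted p was 0.9997. An unadjusted p under 0.05 was reached by 38 genes, or 2.91%, of which 18 were higher (1.38%) and 20 lower (1.53%) at stage 41. Evenly spread p-values over the 1307 genes would give 65.35. Limma-voom called 0 genes as well, and 54 of its unadjusted p-values were under 0.05. Without a prior filter DESeq2 called 1 of 13814 genes, and 420 had an unadjusted p under 0.05. With laxer filters on low counts edgeR called 5 of 4881 genes (at least 5 CPM in 5 libraries) and 10 of 14652 genes (no filter). In these 2 edgeR fits, 151 and 2692 genes had an unadjusted p under 0.05. The share without a filter was far above the 2.91% of the first fit and above that of evenly spread p-values. Why was not tested, and adjusted p-values quoted below from the fit without a filter carry this limit. Of its 10 called genes, 6 had counts in at most 3 libraries of the stage with the higher level, as had 1 of the 5. After counts were summed over assembly components, 0 of 1334 components were called, or 0%, and 48 had an unadjusted p under 0.05, or 3.6%. The values of the 4 genes below were picked for their separation and are given as a description.

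TRINITY_DN10377_c0_g2 was the most abundant of the 4. Its level was 3771, 3671, 3329.8, 5438 and 7178 CPM in stage 41 replicates 1 to 5, against a lowest value of 991, a median of 1854 and a highest value of 3154 CPM at stage 37/38. CPM here are counts per 1000000 counts in tested genes, scaled by TMM, a method that corrects for differences in library composition. The gap between the stages was small beside the spread within them: the lowest stage 41 library stood 1.06 times above the highest stage 37/38 library. The gene averaged 4678 ± 1619 CPM in the 5 stage 41 libraries and 1957 ± 973 CPM in the 6 stage 37/38 libraries (mean ± SD). Its log2 fold change was 1.25 (SE 0.41, edgeR adjusted p = 0.9997), with 0.67 among libraries with title letters A to J and 1.85 among K to R. The libraries overlapped when CPM were scaled by library size only.

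For the component of TRINITY_DN10377_c0_g2 as a whole, the fitted change was smaller and did not exceed its SE. The component holds 1 other gene, which had 504, 1362, 94, 0 and 18 counts in stage 41 replicates 1 to 5, against 216 to 601 counts in the stage 37/38 libraries. That partner had a log2 fold change of -1.29 (SE 0.84), the opposite sign. The named gene took 54.2% to 100% of the counts of the component at stage 41, against 16.3% to 65.3% at stage 37/38, and these ranges overlapped. The component as a whole held 0.499% ± 0.147 of a library's counts (SD over 5) at stage 41, against 0.422% ± 0.0376 (SD over 6) at stage 37/38. When counts were summed over the component before the fit, the log2 fold change was 0.24 (SE 0.31). The change fitted for the total was thus smaller than that fitted for either gene. Whether the genes are separate loci or forms of 1 gene cannot be told from the identifiers.

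TRINITY_DN28141_c0_g2 was a low gene, with 170 counts in all at stage 41 and 55 at stage 37/38. It stood at 291, 122, 159, 236 and 122 CPM in stage 41 replicates 1 to 5. In stage 37/38 replicates 1 to 6 it stood at 20.2, 9.14, 0, 0, 109 and 119 CPM. The stage 37/38 libraries fell into a low part of 4 and a pair, replicates 5 and 6, that nearly reached the lowest stage 41 libraries. A value of 0 in replicates 3 and 4 limits the level there to 24.4 and 47.5 CPM, the worth of 3 counts, and covers counting error only. The log2 fold change was 2.07 (SE 1.06, edgeR adjusted p = 0.9997). It was 4.13 among libraries with title letters A to J and 1.22 among those lettered K to R. The order was lost under both other scalings, so the separation of this gene depends on the TMM factors. Its component holds 2 other genes, neither of which passed the filter on low counts, and the component sum had a log2 fold change of 1.51 (SE 0.80) with the stages overlapping.

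TRINITY_DN20055_c0_g1 was lower at stage 41 and had no partner in its component. It stood at 652, 919, 902, 564 and 1031 CPM in stage 41 replicates 1 to 5, and in the stage 37/38 libraries its lowest, median and highest values were 1181, 1725 and 3218 CPM. The stage 41 libraries lay close together, with a mean of 813 ± 197 CPM (SD, n = 5), against 2104 ± 885 CPM at stage 37/38 (SD, n = 6). The log2 fold change of -1.37 (SE 0.41, edgeR adjusted p = 0.9997) corresponds to a 2.58-fold lower level at stage 41. It varied little between the runs of letters, at -1.30 for A to J and -1.35 for K to R. Under each other scaling the stages overlapped, although the fold change stayed at -1.36 with library size only and -1.28 with DESeq2 size factors.

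TRINITY_DN27340_c1_g1 was the other gene with lower values at stage 41. It had 11, 61, 3, 0 and 0 counts in stage 41 replicates 1 to 5, against 10 to 140 counts in the stage 37/38 libraries. As CPM these were 69.6, 101, 29.7, 0 and 0 at stage 41, with a lowest, median and highest value of 125, 242 and 401 at stage 37/38. A count of 0 allows up to 54.6 CPM in stage 41 replicate 4 and 17.4 CPM in replicate 5, both under the lowest stage 37/38 library. Stage 41 libraries averaged 40.0 ± 44.3 CPM (SD, n = 5), against 248 ± 107 CPM in stage 37/38 libraries (SD, n = 6). Its log2 fold change was -2.53 (SE 1, edgeR adjusted p = 0.9997), with -1.48 among letters A to J and -4.47 among K to R. It was the only one of the 4 whose stages stayed apart under all 3 scalings, and its component holds no other gene.

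**Figure D1:**
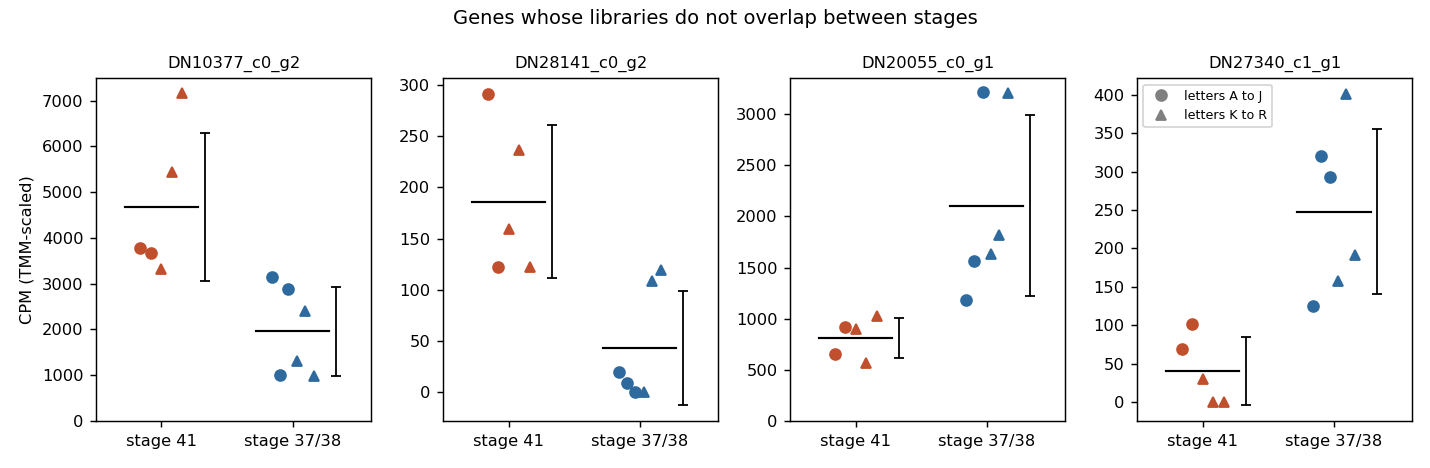
CPM (TMM-scaled, linear axes) of the 4 genes whose libraries do not overlap between stages, with stage 41 (5 libraries) left of stage 37/38 (6 libraries). Circles are libraries with title letters A to J and triangles those with K to R, lines are means and bars are SD. TRINITY_DN10377_c0_g2 and TRINITY_DN28141_c0_g2 are higher and TRINITY_DN20055_c0_g1 and TRINITY_DN27340_c1_g1 lower at stage 41, with narrow gaps between the nearest libraries.

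The 2 most abundant genes showed small fold changes. The leading component held 3 genes whose joint share of a library averaged 28.8% ± 1.77 in the 5 stage 41 libraries and 25.1% ± 6.98 in the 6 stage 37/38 libraries (mean ± SD), a difference within the spread (two-sided exact permutation p = 0.3268). Its share ran from 26.9% to 31.4% at stage 41 and from 16.2% to 33.9% at stage 37/38, so the earlier range enclosed the later one. TRINITY_DN28458_c0_g3, the most abundant gene, took 17.4%, 13.1%, 17.2%, 13.6% and 21.1% of the counts in stage 41 replicates 1 to 5, against a lowest share of 10.7%, a median of 12.7% and a highest of 24.7% at stage 37/38. Its highest share thus stood at stage 37/38, in replicate 3, and the stages overlapped. Its log2 fold change was 0.14 (SE 0.34, limma-voom 95% interval -0.46 to 0.59). TRINITY_DN28458_c0_g1, the next, took 9.89%, 16%, 10.7%, 15.4% and 5.64% in stage 41 replicates 1 to 5, against a lowest share of 5.52%, a median of 9.84% and a highest of 16.6% at stage 37/38. The ranges of the stages nearly coincided, and the log2 fold change was 0.16 (SE 0.40, interval -0.46 to 0.74). Both intervals belong to the limma-voom fold changes, 0.06 and 0.14, and lie within 2-fold in either direction. No such interval was computed from the edgeR fit. The sign of both edgeR changes differed between the letter runs. Among letters A to J they were -0.21 for TRINITY_DN28458_c0_g3 and -0.11 for TRINITY_DN28458_c0_g1, and among K to R 0.63 and 0.73 for the same genes.

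Of the 10 most abundant genes at each stage, 8 were common to both lists, and of the 50 most abundant, 40 were. Over the 50 genes with the largest mean share of counts, log2 fold changes ran from -1.30 to 3.99 with a median of -0.07, against a median of -0.04 over all tested genes. In 42 of the 50 the change was under 2-fold in either direction, against 1020 of all 1307 tested genes. An unadjusted edgeR p under 0.05 was reached by 6 of the 50, against 38 of the 1307. The stage means of log2 CPM correlated at r = 0.852 across the 1307 tested genes, which are not independent replicates.

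Among the genes of these 50 with a fitted fold change of 2 or more, 3 stood far higher in stage 41 replicate 4 than in the other stage 41 libraries. They were singled out after their values were seen. Replicate 4 had the fewest counts of its stage, 67834. The third gene of the leading component took 0.172%, 0.302%, 0.708%, 2.39% and 0.213% of the counts in stage 41 replicates 1 to 5, against 0.00677% to 0.376% in the stage 37/38 libraries. The stages overlapped, and 62.6% of its summed stage 41 CPM lay in replicate 4. Its log2 fold change of 2.59 (SE 0.90) was 1.48 (SE 0.82) without that library. The gene with the largest log2 fold change among the 1307 tested, 3.99 (SE 1.33), stood at 791, 1392, 1159, 32755 and 3140.1 CPM in stage 41 replicates 1 to 5. At stage 37/38 it had 468, 1711 and 745 CPM in replicates 1, 3 and 5 and no count in replicates 2, 4 and 6. Stage 41 replicate 4 held 83.5% of its stage 41 CPM, and the fold change was 1.67 (SE 1.14) without it. The remaining gene stood at 177, 170, 9.91, 19024 and 1095 CPM in stage 41 replicates 1 to 5, against 74 to 7576 CPM in the stage 37/38 libraries, with a log2 fold change of 1.14 (SE 1.25). All 3 had an edgeR adjusted p of 0.9997 among the 1307 genes. The laxer filters called the third gene of the leading component, with an edgeR adjusted p of 0.00189 at 5 CPM in 5 libraries and 0.00113 with no filter. They also called the gene with the largest change, with 2.68e-08 and 2.93e-08 under the same filters. A high value in 1 library was not limited to stage 41. Another gene of the 50, with a log2 fold change of -1.30 (SE 0.64), stood at 24279 CPM in stage 37/38 replicate 5. In the other libraries of that stage it had 692 to 4423 CPM.

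The tested gene with the lowest log2 fold change, -5.30 (SE 1.42), also had the smallest unadjusted p of the edgeR fit, 0.00163, and was chosen here after its values were seen. It stood at 94.9, 26.4, 0, 18.2 and 57.9 CPM in stage 41 replicates 1 to 5. In stage 37/38 replicates 1 to 6 it stood at 0, 2751, 171, 3118, 3790.3 and 23.9 CPM. The stages overlapped, since 3 stage 37/38 libraries were high and replicates 1 and 6 lay within the stage 41 range. With laxer filters edgeR called this gene too, with an adjusted p of 5.46e-07 at 5 CPM in 5 libraries and 7.82e-05 with no filter. DESeq2 called it (adjusted p = 0.0209) when run on the same filtered genes, an alternative chosen after seeing the data.

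**Figure D2:**
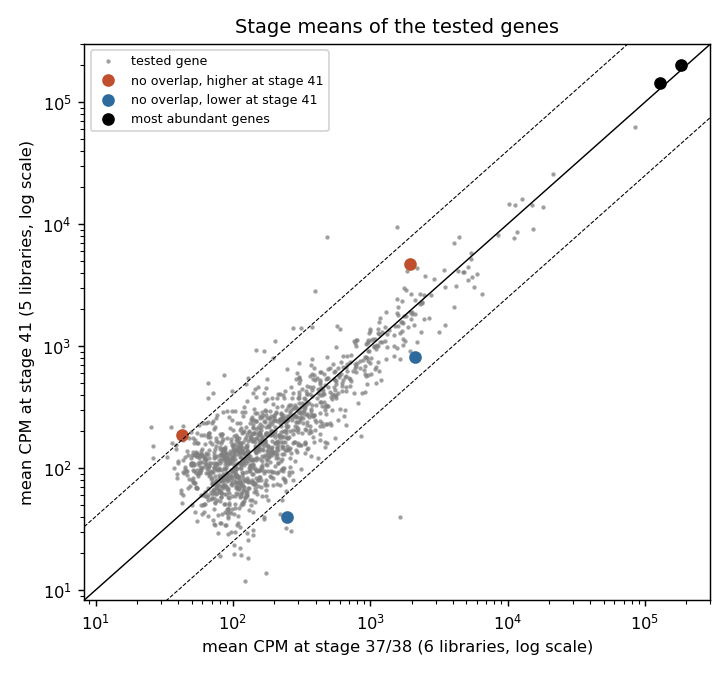
Mean CPM of the 1307 tested genes at stage 41 (vertical) and stage 37/38 (horizontal), both on log axes. The solid line marks equal means and the dashed lines a ratio of 4 in either direction. The 2 most abundant genes lie near the line of equality, and the 4 genes without overlap between stages lie off it but are not the farthest points.

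Large fold changes were few, and those with higher values at stage 41 often had most of their CPM in a single library. A fitted change of 4-fold or more was found in 41 of the 1307 genes, or 3.14%, with 23 higher (1.76%) and 18 lower (1.38%) at stage 41. In 13 of the 23 higher genes, or 56.5%, more than 50% of the summed stage 41 CPM came from 1 library, and stage 41 replicate 3 was that library for 6 of them. Among the 18 lower genes, 2 had more than 50% of their stage 37/38 CPM in 1 library, or 11.1%. The difference between these shares was not tested, and the stages have 5 and 6 libraries. Of the 1020 genes with a change under 2-fold, 472 higher and 548 lower, 14.9% had such a library in the stage with the higher mean. A high value in 1 library itself raises the stage mean, so these shares are not independent of the fold change. The genes with small p-values overlap these sets. An unadjusted edgeR p under 0.05 was reached by 14 of the 23 higher and 7 of the 18 lower genes. Most of the CPM lay in 1 library for 10 of the 18 higher genes with such a p, and for 1 of the 20 lower genes. This is therefore no separate observation of the split, and the 14.9% above is not divided by direction.

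Presence and absence of counts did not divide the stages for any gene. With 67834 counts in the smallest library, a count of 0 does not show that a transcript was absent. At least 1 count was found for 14652 genes over the 11 libraries, of which 10439 had counts at both stages, 2038 at stage 41 only and 2175 at stage 37/38 only. Most genes with counts at 1 stage only had few counts. Those seen at stage 41 only had a median of 5 summed counts and held 1.36% of the stage 41 counts, and those seen at stage 37/38 only had a median of 4 and held 1.49% of the stage 37/38 counts. A single library held all counts of 71.1% of the genes seen at stage 41 only and of 70.9% of those seen at stage 37/38 only. Their highest sums were 308 counts at stage 41 and 193 at stage 37/38. The gene with 308 counts, 181 in stage 41 replicate 2 and 127 in replicate 3, was the one that DESeq2 called without a prior filter (adjusted p = 2.14e-17), and it did not enter the edgeR test of 1307 genes. No gene had counts in all 5 stage 41 libraries and in none of the 6 at stage 37/38, or the reverse. Cases 1 library short of this existed in both directions. Counts in all 5 stage 41 libraries and 1 at stage 37/38 were found for 7 genes, with at most 56 counts at stage 41. Another 18 had counts in 4 of 5 at stage 41 and none at stage 37/38, with at most 57. In the other direction, 8 genes had none at stage 41 and counts in 5 of 6 at stage 37/38, with at most 93 counts there. A further 8 had counts in 1 of 5 at stage 41 and in all 6 at stage 37/38. Of these last 8 genes, 2 passed the filter on low counts, and none of the other cases did.

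**Figure D3:**
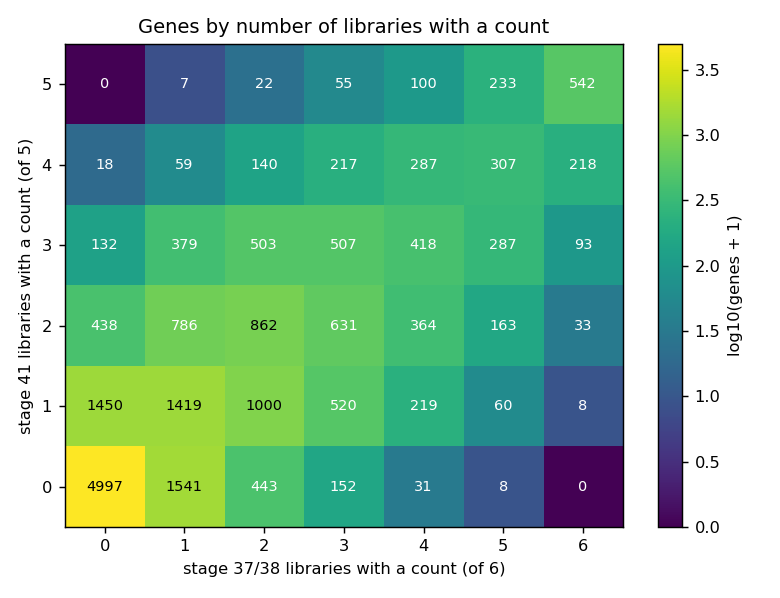
Number of genes by how many of the 5 stage 41 libraries (vertical) and of the 6 stage 37/38 libraries (horizontal) held at least 1 count, with colour giving log10 of the number of genes plus 1. The corners for presence in all libraries of 1 stage and none of the other hold 0 genes, and 542 genes had counts in all 11 libraries.

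Genes seen in all libraries had narrower intervals than the other tested genes. Of the 542 genes with counts in all 11 libraries, 524 were tested. Limma-voom placed the fold change of 352 of them between 4-fold lower and 4-fold higher with its unadjusted 95% interval, and that of 52 within 2-fold. From its centre to an end, such an interval had a median of 1.29 in log2 units. For the remaining 783 genes the interval was wider, with a median reach of 2.21, and it lay within 4-fold for 64 and within 2-fold for 0. Precision followed abundance: the median SE of the log2 fold change in edgeR was 0.574 in the 327 genes with the highest mean CPM and 1.11 in the 327 with the lowest. Small p-values followed it too. An unadjusted p under 0.05 was reached by 24 of the 327 most abundant genes, or 7.34%, and by shares of 1.22% to 1.53% in the 3 less abundant groups of 326 or 327 genes. In the group with mean levels of 96.7 to 154 CPM the interval lay within 4-fold for 13.8% of the genes, and in the lowest group for 6.12%.

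The letters in the titles go from A to R, and the order of the stages starts again from 37/38 at K. They were split there into a run of A to J and a run of K to R, a break that the labels do not mark. Each run held both stages, with 2 stage 41 and 3 stage 37/38 libraries in the first and 3 and 3 in the second. What the letters stand for is not stated, so they were treated only as a possible batch. The runs share no library and thus give separate estimates of the same comparison. Their log2 fold changes correlated at r = 0.0489 across the 1307 genes and had the same sign in 691, or 52.9%. For this correlation each run was fitted on the same 1307 genes. The letter-run values given for single genes came from fits filtered within each run, with 2180 genes in A to J and 954 in K to R. They differ slightly from the values correlated here. Among the 327 most abundant genes r was 0.155 and 57.5% had the same sign. Each run alone gave 0 genes with an edgeR adjusted p under 0.05. The 4 separating genes had the same sign in both runs, which their choice already fixes.

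**Figure D4:**
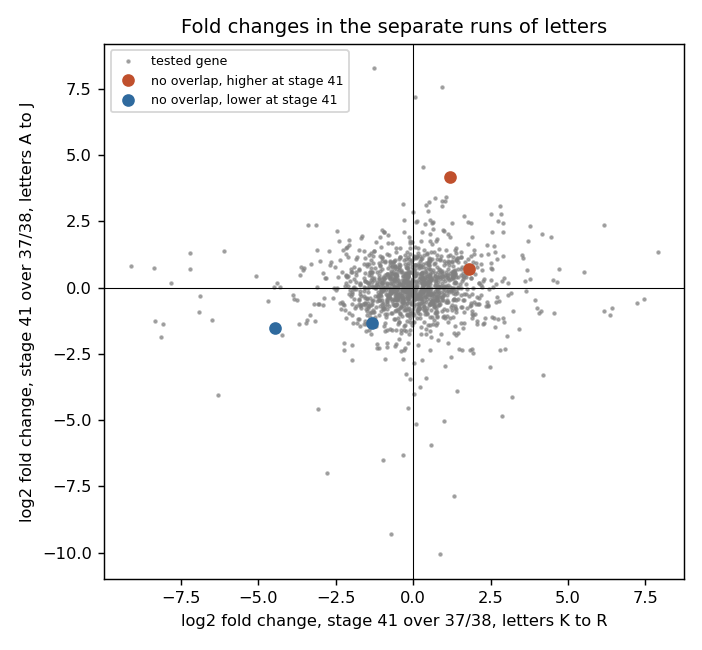
Log2 fold change of stage 41 over stage 37/38 in libraries lettered A to J (vertical; 2 and 3 libraries) against the same in libraries lettered K to R (horizontal; 3 and 3 libraries), for 1307 tested genes. The cloud shows little slope, with r = 0.0489.

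Whole profiles were on average about as alike within a stage as across stages. The mean Pearson correlation of log2 CPM was 0.530 over the 25 pairs of libraries of the same stage and 0.528 over the 30 pairs that join the stages, a difference of 0.00212 (one-sided exact permutation p = 0.4091). Within stage 41 the mean was 0.501 and within stage 37/38 it was 0.549. The closest pair joined the stages: stage 41 replicate 2 and stage 37/38 replicate 1 correlated at 0.830. These libraries had the most genes found in equal numbers of counts, and also the largest total counts of their stages, 748720 and 365543. Leaving out single libraries gave a difference within minus between stages of -0.00881 to 0.0218, negative in 5 of 11 cases. It was highest without stage 41 replicate 2 (one-sided exact permutation p = 0.1048). For 6 of the 11 libraries the most similar library was of the other stage. The number expected if stage played no part was not computed. The most similar library was mostly stage 41 replicate 2 or stage 37/38 replicate 1, the libraries with the largest totals. The biological coefficient of variation, the spread between libraries beyond counting error as edgeR estimates it, was 1.06 at stage 41 and 0.951 at stage 37/38. Leaving out single libraries gave 0.938 to 1.14 at stage 41 and 0.861 to 1 at stage 37/38, and these ranges overlapped.

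**Figure D5:**
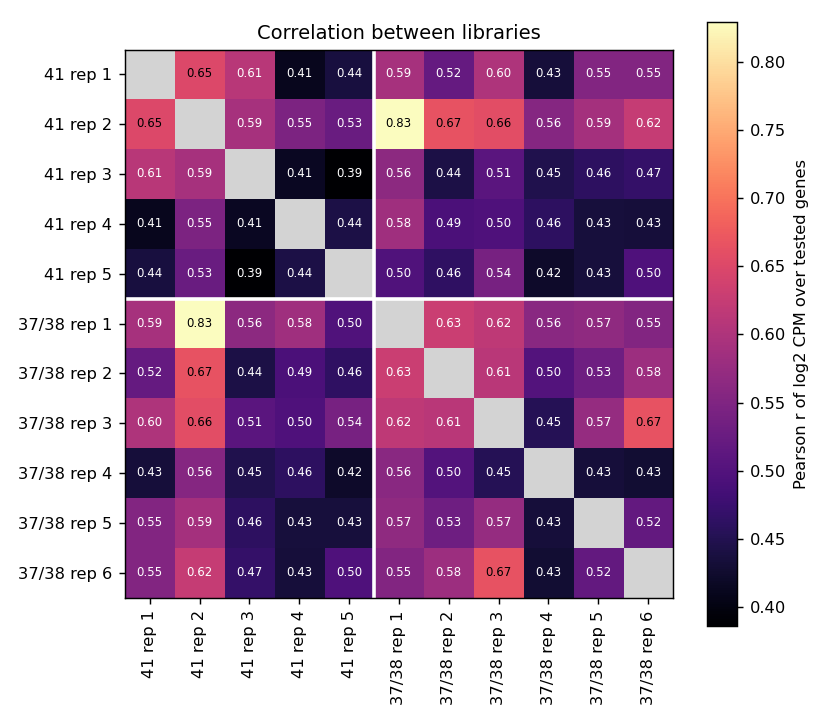
Pearson correlation of log2 CPM over 1307 tested genes between the 11 libraries, stage 41 before stage 37/38, with white lines between the stages and the diagonal left grey. The stage 41 block has a mean of 0.501, the stage 37/38 block 0.549 and the block that joins them 0.528, and the brightest cell, 0.83, joins stage 41 replicate 2 with stage 37/38 replicate 1.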

How the data were processed

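Single-end RNA-seq libraries of explants were used, 5 of stage 41 and 6 of stage 37/38. The authors deposited expected counts per Trinity gene, collapsed from isoforms per the series' design text; reads had passed through Trimmomatic, Bowtie2 and RSEM per the submitters' processing notes. Versions and assembly settings were not stated. The deposited map of 21244 transcripts to genes holds identifiers with no measured unit (other). The expected counts, 8.97% of which above 0 were not whole, were rounded. Genes were kept with filterByExpr by stage (minimum count 10), leaving 1307 with 76.7% to 87.7% of the counts of a library. They were scaled by TMM (factors 0.776 to 1.24) and fitted over the 11 libraries with edgeR 4.0.16 (glmQLFit, glmQLFTest) in R 4.3.3, with stage as the only term and Benjamini-Hochberg adjustment over all tested genes. SE are approximate, from the log2 fold change over the root of its F statistic. Intervals came from limma 3.58.1 voom with sample weights, and log2 CPM used a prior count of 2. Library measures were compared by exact permutation over the groupings of 11 libraries. The fit was tested on simulated data. Alternatives were DESeq2 1.42.0, limma-voom, other scalings and filters, all 17 libraries, the replicate block, the letter runs, sums per component and leaving out each library.

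Up to 2 identifiers per direction are named: the genes without overlap between stages with the smallest p, and the 2 most abundant. The comparison, the rule and the tests were chosen with earlier results of these data known. Marker lists could not be applied without gene names.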

Additional observations from a re-analysis of the deposited data

Results flagged for a closer look

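Dixon's gap test was run on 18 groups of values to find a library well apart from others of its stage. Chance gives about 1 in 20 such groups, and 2 were found. Stage 41 replicate 2 had 748720 total counts, against 67834 to 204903 in the other 4 stage 41 libraries. TRINITY_DN28458_c0_g3, the most abundant gene, stood at 362398 CPM in stage 37/38 replicate 3, against 108787 to 175357 CPM in the other 5 libraries of that stage, and its log2 fold change of 0.14 was 0.45 without that library.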

How the results depend on the processing

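The count of 0 genes with an adjusted p under 0.05 stayed at 0 in 11 of 15 alternatives and when each library was left out. In the leave-one-out fits, 22 to 59 genes had an unadjusted edgeR p under 0.05, with 1033 to 1562 genes tested. DESeq2 called 1 of 13814 genes without a prior filter, with counts in 2 of 5 stage 41 libraries and 0 of 6 at stage 37/38. On the genes of the first filter it called 1 other gene of 1302, an alternative added after seeing the data. With at least 5 CPM in 5 libraries edgeR called 5 of 4881 genes, 4 of them higher at stage 41 and 4 also tested under the first filter. Without a filter it called 10 of 14652, which include those 5. The cause was not tested. The 4 genes without overlap became 1 with library size only and 2 with DESeq2 size factors. Without stage 41 replicates 1 to 5 that count was 11, 12, 8, 12 and 6. Without stage 37/38 replicates 1 to 6 it was 10, 8, 7, 9, 4 and 6, a range of 4 to 12. The filter was run anew each time, which left 1033 to 1562 tested genes and shares of 0.387% to 0.939%. Leaving out a library by its construction eases the criterion. The 4 genes kept their sign wherever they were tested, with log2 fold changes over leave-one-out of 1.03 to 1.53 (TRINITY_DN10377_c0_g2), 1.82 to 2.68 (TRINITY_DN28141_c0_g2), -1.48 to -1.19 (TRINITY_DN20055_c0_g1) and -3.21 to -2.21 (TRINITY_DN27340_c1_g1). Within letters A to J the most abundant genes had -0.21 (TRINITY_DN28458_c0_g3) and -0.11 (TRINITY_DN28458_c0_g1).

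Leaving out single libraries gave differences, stage 41 minus stage 37/38, of -55426 to 114796 total counts, -430 to 307 genes at equal depth and -0.374 to 3.95 percentage points in the share held by the 10 leading genes, and of -0.00881 to 0.0218 for the correlation within minus between stages, none with an exact permutation p under 0.05. The number of genes with counts in every library whose interval lay within 4-fold was 235 to 361, the lowest without stage 41 replicate 2.

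With the replicate block edgeR called 0 genes, with 23 at an unadjusted p under 0.05, and TRINITY_DN28141_c0_g2 had a log2 fold change of 3.84. Libraries that share a number showed correlations of deviations of -0.098 to 0.084, and 1 of 5 stage 41 libraries was most like its own number. With so large a spread between libraries these values cannot exclude pairs. The labels name no pairs, and replicate 3 falls in letters A to J at stage 37/38 and in K to R at stage 41. The numbers were therefore not taken as pairs. Depth and the spread between libraries limit all of these values.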
